A study of Saccharomyces cerevisiae with 2 samples.

Results

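The histone genes of budding yeast, Saccharomyces cerevisiae, were examined in a culture treated with the mating pheromone alpha factor and in a mock-treated culture. They were taken as the probe sets whose annotated gene is 1 of 10: the core histone genes HTA1, HTA2, HTB1, HTB2, HHT1, HHT2, HHF1 and HHF2, the linker histone gene HHO1 and the variant histone gene HTZ1. This gave 10 of the 5498 S. cerevisiae probe sets named here. They read 9 of the 10 genes, out of 5449 genes in all, and no probe set is named for HHF2. Of the 10 probe sets, 2 carry the name ending _s_at, which marks probes that match more than 1 transcript. They are the second HTA2 probe set and the HHF1 probe set, and they are called shared below.

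Both cultures were of R276, a strain of the a mating type derived from BY4741 in the S288c background. It lacks BAR1 (bar1Δ::KanMX), the protease that degrades alpha factor, and carries the alleles ura3Δ0, leu2Δ0, his3Δ1 and met15Δ0. The treated culture received 50 ng/ml of alpha factor in rich medium at 30 °C for 3 hours, after which about 90% of its cells had mating projections. The sources used here do not say how the mock culture was grown or how its cells were spread over the cell cycle. Its title and source name mark it as mock-treated, while its description has the wording of the treated one, so every difference below rests on the title and source name. Total RNA from each culture was read on 1 Affymetrix Yeast 2.0 array, which gives each probe set a log2 expression value. No replicate error and no test can be had from a single array for each condition. Each difference below therefore describes these 2 arrays, and their number limits its precision.

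Histones package DNA into nucleosomes. The core is built from H2A and H2B (the HTA and HTB genes) and from H3 and H4 (the HHT and HHF genes), and each core protein has a pair of gene copies in this yeast. The copies stand as divergent pairs of neighbours, HTA1-HTB1, HTA2-HTB2, HHT1-HHF1 and HHT2-HHF2, so that a pair shares the stretch of DNA between its genes. Core histone transcription is tied to DNA replication in S phase, and alpha factor holds a cells in G1, before S phase. At 3 of these loci, but not at HTA2-HTB2, transcription outside S phase is known to be repressed by the HIR complex, a histone chaperone. HHO1 encodes the linker histone H1 of this yeast, and HTZ1 encodes H2A.Z, a variant that replaces H2A in nucleosomes near promoters.

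Transcripts of all 9 measured histone genes were lower with alpha factor. All 10 probe sets had a lower value in the alpha-factor array, each past 2-fold. A probe set was called lower or higher when the arrays differed by 2-fold or more and 1 or both values exceeded background. This background level, 5.50 in mock and 5.49 with alpha factor, was the 95th percentile of the array's probe sets for fission yeast, S. pombe. By the same rule, 3.79% of the 5381 S. cerevisiae probe sets above background were lower and 5.52% were higher. At a looser rule of 1.5-fold, 10.6% of the 5381 were lower, and at 4-fold 1.00% were, as were all 10 and 2 of the histone probe sets. Counted by gene, at 2-fold, 3.78% of 5337 genes were lower and 5.51% were higher. The median log2 difference (alpha factor minus mock) was -1.18 over the 10 histone probe sets and -0.03 over all probe sets above background. In bulk RNA, fewer cells making histone mRNA and less of that mRNA per cell cannot be told apart.

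**Figure D1:**
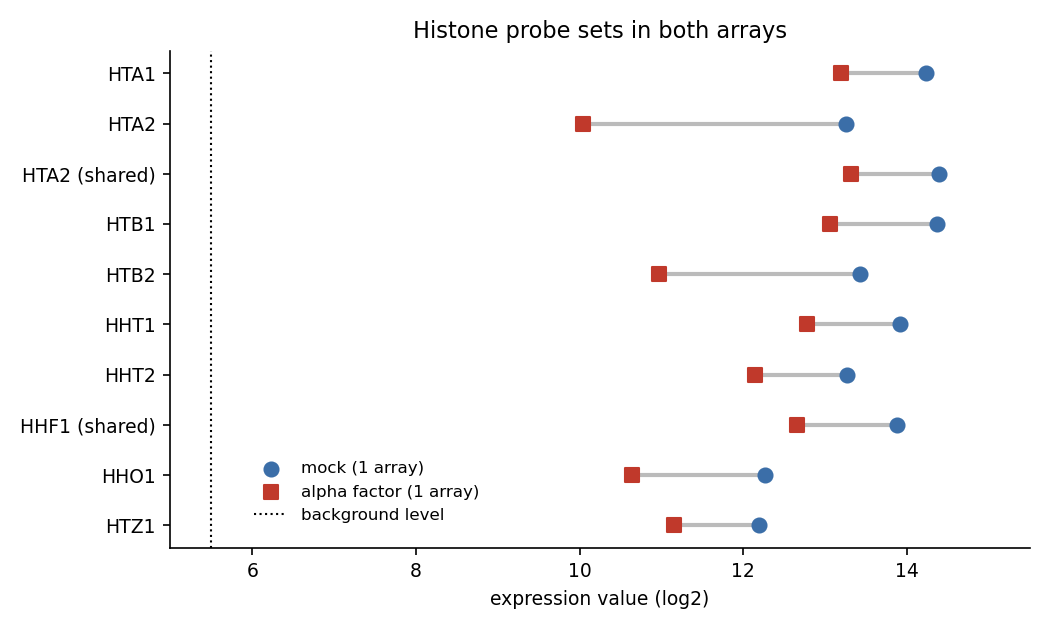
Expression values (log2, horizontal axis) of the 10 histone probe sets in the mock array (circles) and the alpha-factor array (squares), with the background level as a dotted line. Every square lies to the left of its circle, and the widest gaps are those of the unshared HTA2 probe set, from 13.25 to 10.05, and of HTB2, from 13.42 to 10.97.

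Histone H2A differed between its gene copies. HTA1 (YDR225W, chromosome IV) had an expression value of 14.23 in mock and 13.19 with alpha factor. This was a log2 difference of -1.04, or 2.05-fold lower, close to the 2-fold rule. HTA2 (YBL003C, chromosome II) was at 13.25 and 10.05 by its unshared probe set, a log2 difference of -3.21, or 9.24-fold lower. That left 10.8% of the mock signal for HTA2, against 48.7% for HTA1. The shared HTA2 probe set was at 14.39 and 13.31, a log2 difference of -1.08. It therefore stood beside HTA1 in log2 difference, with -0.040 between them, and not beside the unshared HTA2 probe set. The sources used here do not say which transcripts its probes match, and the annotation names only HTA2 for it.

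The probe sets of HTA2 were unusual in how far apart they were. Among the 45 S. cerevisiae genes read by exactly 2 probe sets, the log2 differences of the pair were a median of 0.05 apart. For HTA2 they were 2.13 apart, the second largest gap of the 45, and only 3 gaps were over 1. Averaging both probe sets gave HTA2 a log2 difference of -2.14, a value that neither probe set showed. The gap between the H2A copies, HTA2 minus HTA1, was -2.17 by unshared probe sets, -1.10 by the average and -0.040 by the brighter, shared probe set alone.

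Histone H2B repeated this order of its copies without any shared probe set. HTB1 (YDR224C), the divergent partner of HTA1, was at 14.37 in mock and 13.06 with alpha factor, 2.48-fold lower. HTB2 (YBL002W), the partner of HTA2, was at 13.42 and 10.97, 5.47-fold lower. HTB2 minus HTB1 in log2 difference was -1.14, a ratio between the 2 changes of 2.21-fold. The H2B copies thus differed in the same direction as the unshared probe sets of the H2A copies. For H2A and H2B by unshared probe sets, partners of a locus were closer than copies. HTB1 minus HTA1 was -0.27, and HTB2 minus HTA2 (unshared) was 0.76. By locus, the mean log2 difference of HTA2 (unshared) and HTB2 minus that of HTA1 and HTB1 was -1.66. No test of these gaps was possible with 1 array per condition.

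Histone H3 showed no such gap. HHT1 (YBR010W, chromosome II) was at 13.91 in mock and 12.78 with alpha factor, a log2 difference of -1.13. HHT2 (YNL031C, chromosome XIV) was at 13.27 and 12.14, also a log2 difference of -1.13. The H3 copies, which lie at separate loci and have no shared probe set, were 2.19-fold lower in both cases, and HHT2 minus HHT1 was -0.0046. Histone H4 was read only by the shared HHF1 probe set (YBR009C), which was at 13.88 and 12.66, 2.33-fold lower. Its log2 difference was -1.22, and that difference minus the one of either H3 gene was -0.09. Since that probe set can match more than 1 transcript and HHF2 has none of its own here, the H4 copies were not told apart.

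**Figure D2:**
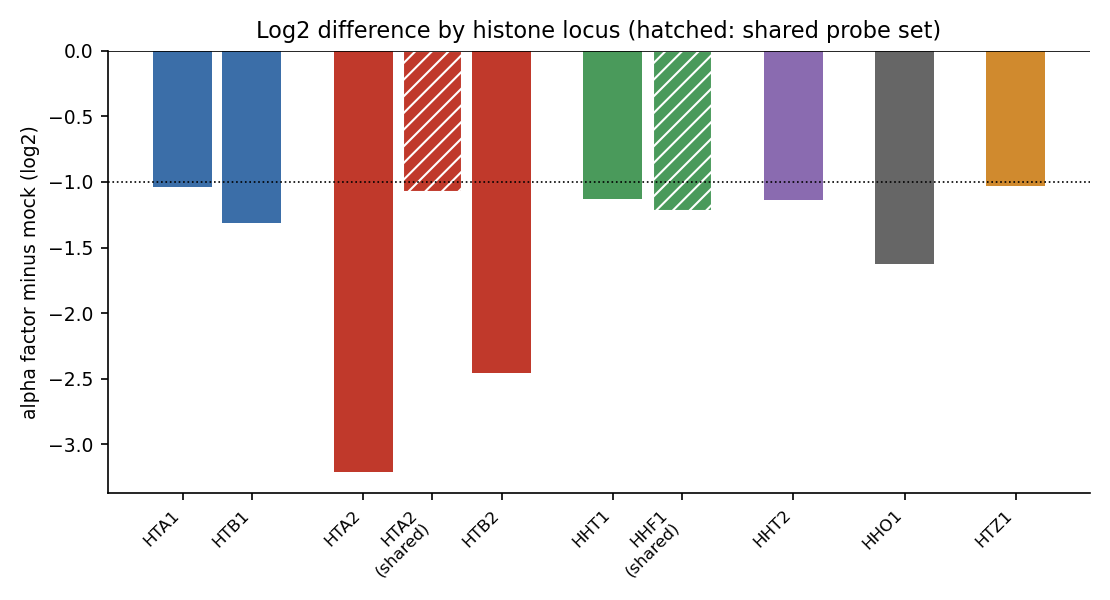
Log2 difference (alpha factor minus mock, vertical axis) of each histone probe set, coloured by locus, with shared probe sets hatched and the 2-fold rule as a dotted line. The unshared HTA2 bar, at -3.21, and the HTB2 bar, at -2.45, reach furthest down, while the other core histone bars end between -1.31 and -1.04.

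The core histone probe sets thus fell into a narrow band and a pair below it. The 6 core probe sets other than HTB2 and the unshared HTA2 had log2 differences from -1.31 to -1.04, with a median of -1.13. Their mock values ran from 13.27 to 14.39 and their alpha-factor values from 12.14 to 13.31. The unshared HTA2 and HTB2 probe sets had mock values of 13.25, just under that mock range, and 13.42, inside it, and alpha-factor values under its alpha-factor range. HHT2, at 13.27 in mock, lay in the band. Any part of signal level in these differences was not tested. Ranked from the lowest log2 difference among all 5498 S. cerevisiae probe sets, HTA2 (unshared) was at rank 13 and HTB2 at rank 31. The other histone probe sets lay between rank 87 (HHO1) and rank 190 (HTZ1).

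The linker histone gene lay between the band and the pair. HHO1 (YPL127C, chromosome XVI) was at 12.26 in mock and 10.64 with alpha factor. It was 3.09-fold lower, which left 32.4% of its mock signal. Its log2 difference of -1.63 was below the median of the 7 measured core genes, -1.22, with a difference of -0.41 between them. Of the probe sets that read a single histone gene, only those of HTA2 and HTB2 had a lower log2 difference than HHO1.

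The variant gene HTZ1 (YOL012C, chromosome XV) was at 12.19 in mock and 11.16 with alpha factor. It was 2.05-fold lower, which left 48.9% of its mock signal, and its log2 difference of -1.03 was the smallest in size of the 10 probe sets. It stood 0.19 above the median of the core genes, or 0.10 with the brightest probe set per gene. It was 2.17 above unshared HTA2 and 0.0047 above HTA1, both of which encode the H2A that the variant replaces. HTZ1 therefore lay at the upper edge of the core band and not apart from it. It was also the member nearest the 2-fold rule. Removal of the trend of the differences with level by a loess curve moved its log2 difference to -0.96, short of the rule. The centromeric H3 variant gene CSE4, not a member, was at 9.83 and 9.90, a log2 difference of 0.07.

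The histone probe sets were read against other bright probe sets, since values near the top of the array scale can compress differences. The highest values in the table were 15.14 (mock) and 15.19 (alpha factor). Of the 1747 S. cerevisiae probe sets whose mean value was at least that of the dimmest histone probe set, HHO1 at 11.45, 38 were lower by 2-fold or more and 81 were higher. That is 2.18% lower and 4.64% higher, and 10 of those 38 (26.3%) were the histone probe sets. This cut was drawn from the histone values themselves, so all 10 pass it by construction and the 26.3% is only a description. Among all 204 lower probe sets above background, the histones made up 4.90%. Of the 304 probe sets with a mean value at least that of HTA1, 3 were lower by 2-fold or more, a share of 0.987%. All 3 read H2A or H2B genes, namely HTB1, the shared HTA2 probe set and HTA1. This cut was likewise drawn from a histone value, so HTA1 passes it by construction. Both cuts use the mean of the 2 arrays, which a fall with alpha factor itself lowers. A probe set with a large fall can thus drop below a cut, so the lower share above it is partly set by the cut. The other 301 probe sets had a median log2 difference of -0.0048, and the lowest of them was at -0.48. HTA1, HTB1 and the shared HTA2 probe set lie in this region where most differences were small. By that mean the unshared HTA2 probe set and HTB2 lie below it, and their own falls lower their means. Their mock values, 13.25 and 13.42, were above the lowest mock value in the region, 12.97. The part of this in the gap between the copies was not tested.

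**Figure D3:**
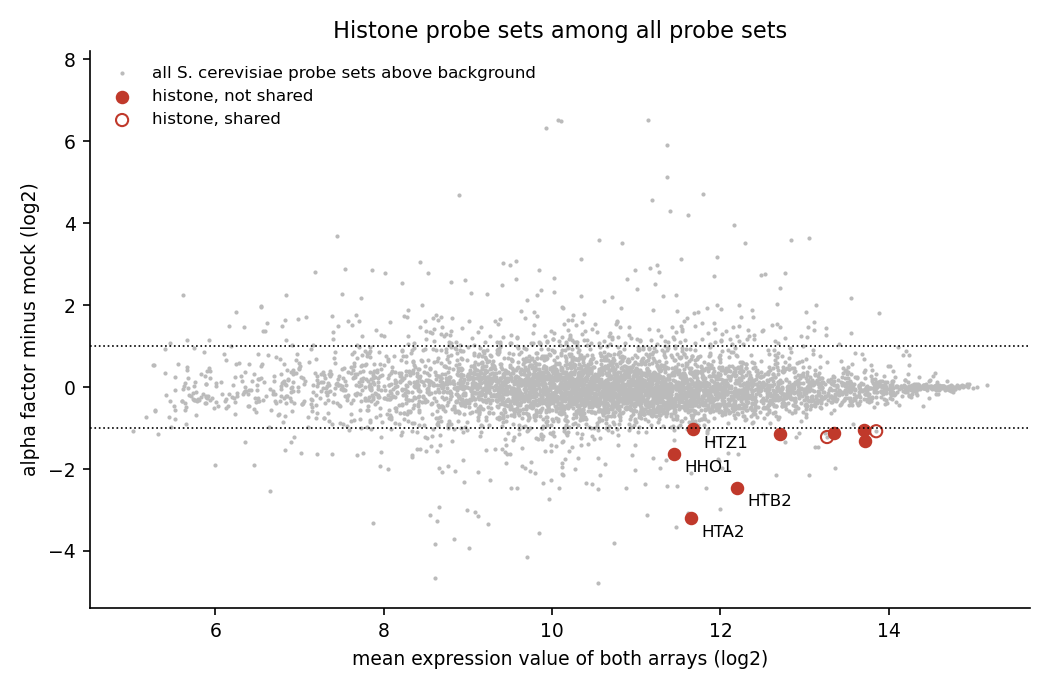
Log2 difference (alpha factor minus mock, vertical axis) against the mean value of both arrays (log2, horizontal axis) for the 5381 S. cerevisiae probe sets above background (grey), with histone probe sets in red and shared ones as open circles. The dotted lines mark 2-fold. The grey cloud narrows towards the bright end, and the histone probe sets lie along its lower edge or below it.

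The genes beside the histone loci were set beside the histone genes. On each outer side of the 4 divergent pairs, of HHO1 and of HTZ1, the nearest annotated gene was taken, which gave 12 neighbours, all measured. None was lower or higher by 2-fold. Over all genes above background 3.78% were lower and 5.51% higher, so 0 calls among 12 genes says little about these neighbours. Of the 12, 6 had a negative and 6 a positive log2 difference, and the median was -0.03. At HTA2-HTB2, where the histone differences were largest, UTP20, a ribosome biogenesis factor, was at 12.60 and 12.04. Its log2 difference was -0.56. ECM15, on the other side, was at 12.18 and 13.08, a log2 difference of 0.90 and the highest of the neighbours. At HTA1-HTB1, the adenylate kinase gene ADK1 was at 14.01 in both arrays. The corepressor gene CRF1 was near background, at 5.89 and 5.40, with a log2 difference of -0.49. At HHT1-HHF1, the transporter gene FLR1 had a log2 difference of 0.08 and the inorganic pyrophosphatase gene IPP1 one of 0.14. The lowest neighbour was KTR5, a mannosyltransferase gene beside HHT2-HHF2, at -0.67, while SIW14 on the other side was at -0.07. Beside HHO1, TBF1 and NAN1 were at -0.33 and -0.32. Beside HTZ1, HRD1 and PLB3 were at 0.35 and 0.25, so both had the opposite sign to HTZ1.

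**Figure D4:**
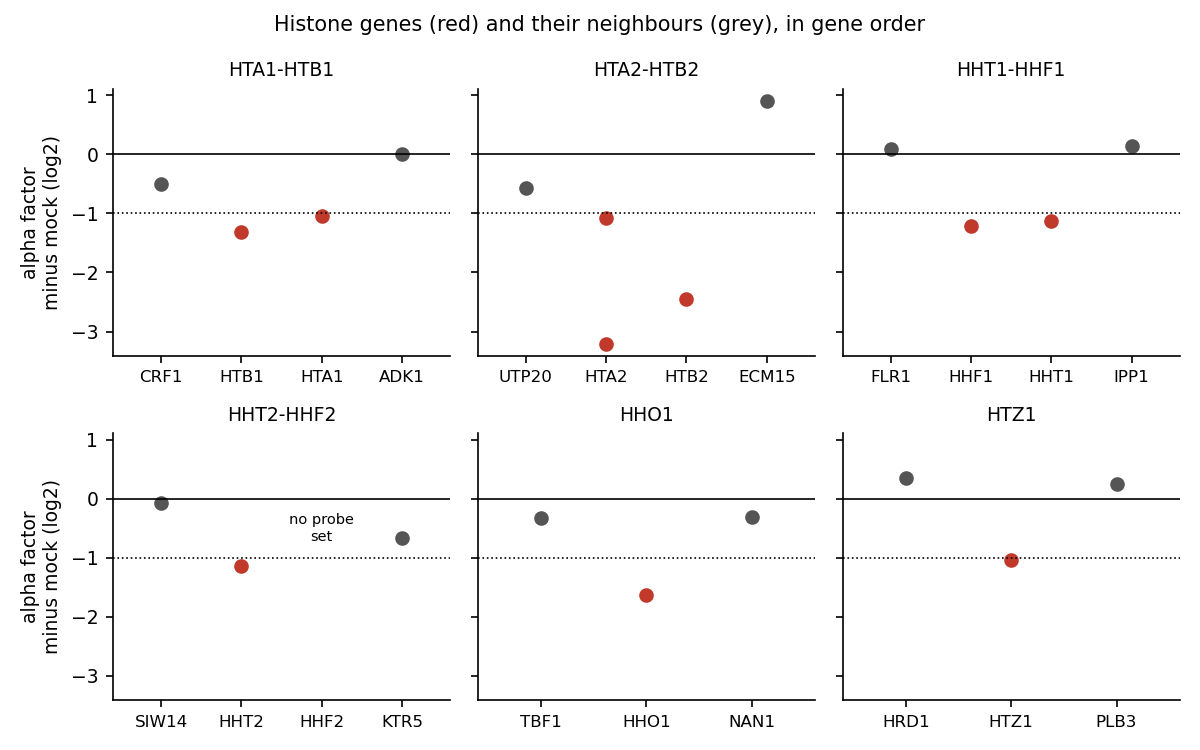
Log2 difference (alpha factor minus mock, vertical axis) of the histone genes (red) and the nearest gene on each outer side (grey), in gene order for 6 loci, with HTA2 shown by both of its probe sets and the 2-fold rule as a dotted line. Every red point lies below -1, and all 12 grey points lie between -0.67 and 0.90.

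The genes that act with histones in S phase were set beside them. Of 27 genes of S-phase DNA synthesis, 9 were lower past the 2-fold rule, 0 were higher, and 25 had a negative log2 difference. Of the 5337 genes above background, 5.51% were higher, and 2879 had a negative log2 difference. The median log2 difference of the 27 was -0.69, against -1.22 over the 9 histone genes and -0.03 over all genes above background. RNR1, whose product is the large subunit of the enzyme that makes deoxyribonucleotides, was at 13.18 and 9.77, a log2 difference of -3.42 that was lower than that of any histone probe set. POL30, which encodes the sliding clamp PCNA, had a log2 difference of -1.64, close to the value of HHO1. TOF1, a replication fork protein, was at -1.60 and RAD27, a nuclease that processes Okazaki fragments, at -1.41. The DNA polymerase genes POL1 and POL2 were at -1.26 and -1.27. The other 3 lower members were the clamp loader subunit RFC4 at -1.17, the helicase factor CDC45 at -1.14 and the thymidylate synthase gene CDC21 at -1.09. The highest of the 27, the primase gene PRI1, was at 0.18. The 2-fold rule therefore took 9 of 27 of these genes and 9 of 9 measured histone genes as lower, against 3.78% of all genes above background. The list and the histone genes were chosen with earlier results of these data known, so these counts are a description.

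Of 9 regulators of histone transcription, 1 was lower past the 2-fold rule and 0 were higher. Over all genes above background, 3.78% were lower and 5.51% were higher. The median log2 difference of the 9 regulators was -0.27. The lower gene was SPT21, which acts with Spt10 to activate histone genes, at 9.73 and 7.81, or 3.80-fold lower, a log2 difference of -1.93. SPT10, which encodes that DNA-binding activator, was at 8.90 and 8.84, a log2 difference of -0.07. The HIR complex genes HIR1, HIR2, HIR3 and HPC2 were at -0.20, -0.65, -0.27 and 0.11. ASF1, a chaperone of H3 and H4, was at -0.74.

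The complex that places the HTZ1 product in chromatin was examined in the same way. Of 16 genes of the SWR1 complex and of chaperones of this variant, 15 were above background, 1 passed the 2-fold rule as lower and 0 as higher. By the same rule 3.78% of all genes above background were lower and 5.51% were higher. The median log2 difference was -0.20. The lower gene was BDF1, a bromodomain protein linked to the complex, at 12.37 and 11.34, a log2 difference of -1.03 like that of HTZ1. SWR1, the catalytic subunit, was at 10.43 and 10.09, a log2 difference of -0.34. The chaperone genes CHZ1 and NAP1 were at -0.18 and 0.25, and SWC7 was under background in both arrays. The log2 difference of HTZ1 was level with that of BDF1 and larger in size than those of the other genes of this list.

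**Figure D5:**
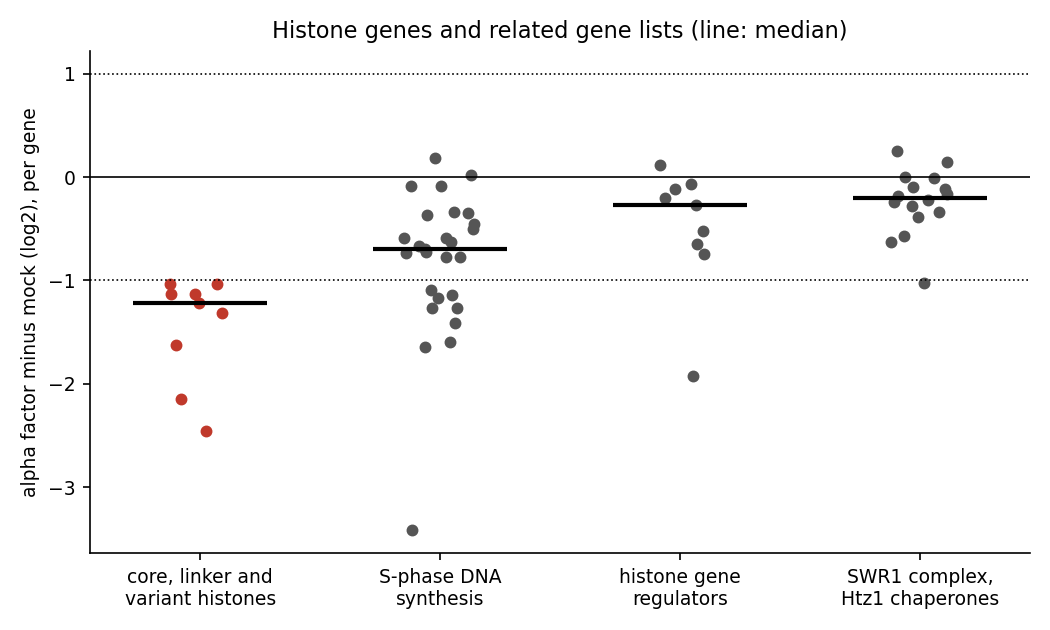
Log2 difference (alpha factor minus mock, vertical axis) of each measured gene in 4 lists, with the median as a line and 2-fold as dotted lines; HTA2 is the mean of both its probe sets. The histone genes lie between -2.45 and -1.03 with a median of -1.22, and the medians of the other lists are -0.69, -0.27 and -0.20.

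The state of the cultures was read from marker genes. All 3 listed pheromone response genes were higher past 2-fold in the alpha-factor array, with log2 differences of 2.73 for FUS1, 5.13 for PRM1 and 5.90 for FIG1. The 5 listed genes of a cells were above background in both arrays, with log2 differences from 0.18 to 1.27, the highest being that of the agglutinin subunit gene AGA2. Of 4 listed genes of alpha cells, 2 were higher past 2-fold. By the same rule 5.51% of the 5337 genes above background were higher. STE3, the receptor gene of alpha cells, was at 7.74 and 9.49, and the pheromone gene MF(ALPHA)2 was at 6.36 and 8.64. SAG1, their agglutinin gene, was at 9.53 and 9.91, and MF(ALPHA)1, their major pheromone gene, was at 5.85 and 5.93, just above background. Any part of alpha cells in the histone differences was not tested. Of the 5 genes altered in the strain, BAR1 and 3 others were under background in both arrays, and HIS3, at 11.80 and 12.21, was above it. The his3Δ1 allele leaves part of that gene, so HIS3 checks nothing here. Control probe sets for 25S ribosomal RNA differed between the arrays. The log2 differences of the 8 ran from -5.20 to 0.01, with a median of -0.85, and their part in the histone values was not tested.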

How the data were processed

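The deposited table holds 1 value for each of 10928 probe sets in each of 2 arrays. The values were taken as log2 expression values, as the deposited values ran from 3.32 to 15.19. Per the submitters' processing notes they were made with affy, a Bioconductor package. The sources used here state neither its version nor how background, normalization and probe summary were handled. The sorted columns differed by at most 0.092, so a change in total mRNA would not be seen.

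Probe sets were named through the platform annotation, with symbols updated by gene ID in the RefSeq table of assembly R64, which was also used for neighbours. The array values name no build, so no coordinates are given, and no sequences are shown. Arrays were compared as deposited, without a pseudocount. The members and gene lists were chosen with earlier results of these data known. All members, list genes past 2-fold and neighbours are named. Other list genes were named after their values were seen. Probe sets of a gene were averaged for counts by gene. Alternatives were other centrings, quantile normalization, loess removal, a pseudocount of 32, other fold rules and background levels, and other choices of probe set. Tools were statsmodels 0.14.6, pandas 2.3.3 and numpy 2.4.6 under Python 3.11.15.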

Additional observations from a re-analysis of the deposited data

How the results depend on the processing

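The 10 histone probe sets were recomputed under 5 alternatives: centring on the S. cerevisiae or the S. pombe median, quantile normalization, removal of a loess curve, and a pseudocount of 32. Of these 50 values, 49 stayed lower by 2-fold or more. The exception was HTZ1 after removal of the loess curve, at -0.96, which left 9 probe sets and 8 genes lower. The median over the histone probe sets lay between -1.18 and -1.13. A fold rule of 4 left 2 histone probe sets and 2 histone genes lower, where 1.00% of probe sets above background were. A rule of 1.5 kept all 10 lower, where 10.6% were. HTA2 minus HTA1 depended on the probe set: -1.10 by the average, -2.17 with shared probe sets left out and -0.040 with the brightest. The centrings shift all genes alike and cannot move a difference between genes. Under the other 3 of the 5, HTB2 minus HTB1 lay between -1.13 and -1.11, HHT2 minus HHT1 between -0.0026 and 0.012, on both sides of 0, and HTZ1 minus the core median between 0.19 and 0.21, which the brightest probe set per gene took to 0.10. With no replicates, a value was taken as moved when it changed by more than 0.186, the SD of the log2 differences of the S. pombe probe sets, which describes background signal and no spread between cultures. No paired analysis was possible because each condition has 1 array.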

Other observations

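The same arrays carry probe sets for histone genes of fission yeast, S. pombe, of which 9 are named here. Of these, 8 lay between 4.09 and 5.44 in both arrays, under the background level. The probe set of S. pombe hta1, an H2A gene, was at 7.11 in mock and 7.14 with alpha factor, a log2 difference of 0.03. Only 3 of the 1746 S. pombe probe sets, hta1 included, were as high as hta1 in the mock array. The value of S. pombe hta1 was thus nearly the same in both arrays, while those of HTA1 and HTA2 were lower with alpha factor. Which transcripts its probes read in RNA of S. cerevisiae was not tested.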
